A study of Homo sapiens with 16 samples.

Results

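Apolipoproteins are the protein components of lipoproteins, the particles that carry triglyceride and cholesterol through plasma and lymph, and the enterocyte and the hepatocyte are the cell types that assemble them. Transcripts of 9 apolipoprotein genes (APOA1, APOA2, APOA4, APOB, APOC1, APOC3, APOE, APOH and APOM) and of MTTP, the gene of the microsomal triglyceride transfer protein, were followed through a gut-liver chip experiment. The 10 genes were chosen by symbol, with earlier results of these data known though not by a rule on measured values, and all 10 were found among the 60623 genes listed. The study grew the human colon tumour line Caco-2 and the human liver tumour line HepG2 in a microfluidic device, alone (mono-culture) or with the medium of both lines connected (co-culture), and exposed them or not to free fatty acids (FFA), a palmitic and oleic acid mixture at 1 mM. Poly(A) RNA of each line was read as PCR-amplified cDNA on an Oxford Nanopore device, with 2 replicates in each of 8 groups.

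The groups were Caco-2 mono-culture control, Caco-2 mono-culture FFA, Caco-2 co-culture control, Caco-2 co-culture FFA and the same 4 for HepG2. The cells were grown in Dulbecco's modified Eagle medium with fetal bovine serum, and per the study's methods serum was withdrawn before FFA, which were given in serum-free medium with albumin. Per the labels the cells were harvested 1 day after FFA, and the study's text describes mRNA-seq at this and at a longer duration. Every sample title begins with LTC, whose meaning was not established, so the duration of 1 day rests on the label alone. Both lines are tumour lines, each a single model of its tissue. The study's methods describe the mRNA-seq experiments as independent, but the labels do not tie a library to an experiment, so the p-values measure the spread between these libraries, part of which may be technical. Poly(A) counts scaled to the library total cannot tell fewer cells of a type from less RNA per cell.

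The nascent lipoprotein begins with APOB, the large scaffold protein of chylomicrons and very low density lipoprotein, onto which MTTP loads lipid in the endoplasmic reticulum. The exchangeable apolipoproteins join later. APOA1 and APOA2 are the main proteins of high density lipoprotein, APOA4 is an intestinal apolipoprotein known to rise with fat absorption, APOC1 and APOC3 restrain lipolysis and particle clearance, and APOE is the ligand through which cells take up remnant particles. APOH binds anionic phospholipid and APOM carries sphingosine-1-phosphate on high density lipoprotein.

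Several of the genes are neighbours in GRCh38 (GENCODE 44). APOA4 (chr11:116820700-116823304, minus strand), APOC3 (chr11:116829706-116833072, plus strand) and APOA1 (chr11:116835751-116837622, minus strand) lie within 16923 bases, and APOE (chr19:44905791-44909393, plus strand) ends 4853 bases before APOC1 (chr19:44914247-44919349, plus strand). APOB (chr2:21001429-21044073, minus strand) has 29 exons and a 14121-base transcript. APOA2 lies at chr1:161222292-161223631 (minus strand), APOH at chr17:66212033-66256525 (minus strand), APOM at chr6:31652416-31658210 (plus strand) and MTTP at chr4:99564081-99623997 (plus strand).

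Promoter sequences were read for the genes whose co-culture effect differed between the lines (APOE and APOM) and for APOA2 and APOH, which differed strongly between the lines. Each is the 250 bases before the gene's RefSeq start (GRCh38.p14), 5′ to 3′ on the gene's strand. Capitals mark matches to the motifs searched on both strands. The APOH and APOM windows lie inside the GENCODE spans given above, as does that of APOC1, so distances count from the RefSeq start alone.
APOE (chr19:44905546-44905795, + strand): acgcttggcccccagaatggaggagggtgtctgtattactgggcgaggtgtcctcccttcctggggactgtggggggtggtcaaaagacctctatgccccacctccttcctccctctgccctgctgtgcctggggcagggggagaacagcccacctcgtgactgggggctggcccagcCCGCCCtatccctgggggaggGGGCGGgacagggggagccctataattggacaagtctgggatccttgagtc
APOM (chr6:31655644-31655893, + strand): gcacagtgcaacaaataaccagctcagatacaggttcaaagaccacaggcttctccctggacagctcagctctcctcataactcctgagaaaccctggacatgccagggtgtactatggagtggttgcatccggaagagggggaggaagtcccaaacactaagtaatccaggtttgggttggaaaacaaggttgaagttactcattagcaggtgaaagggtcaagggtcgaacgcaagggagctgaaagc
APOA2 (chr1:161223629-161223878, - strand): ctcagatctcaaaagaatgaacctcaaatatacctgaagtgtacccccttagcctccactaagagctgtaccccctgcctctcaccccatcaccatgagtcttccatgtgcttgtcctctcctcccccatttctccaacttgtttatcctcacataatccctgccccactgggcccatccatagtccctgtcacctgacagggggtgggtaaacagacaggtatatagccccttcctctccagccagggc
APOH (chr17:66229416-66229665, - strand): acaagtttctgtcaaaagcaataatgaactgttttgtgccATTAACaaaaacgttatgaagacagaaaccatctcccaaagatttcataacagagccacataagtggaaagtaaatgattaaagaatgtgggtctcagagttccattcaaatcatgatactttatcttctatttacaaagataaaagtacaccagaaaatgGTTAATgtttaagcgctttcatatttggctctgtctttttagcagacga

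The APOE window held the GC box GGGCGG at 2 places, with first bases 72 and 51 bases before the start. The GC box was in 42.6% of the 35116 RefSeq windows. The APOH window held the HNF1 half-site GTTAAT at 2 places, first bases 210 and 49 before the start, a string found in 6.23% of windows. HNF1 is a liver and gut transcription factor. The APOM and APOA2 windows held none of the 10 motifs searched. Among the others, the HNF4-type element CAAAGTCC was in 1.02% of all windows and the C/EBP palindrome TTNNGCAA in 9.05%. The nuclear receptor half-site AGGTCA was in 12.1% of windows. The cyclic AMP response element TGACGTCA was in 1.65% of windows. The TATA box, searched as TATAAA, was in 10.7% of windows. The E-box, searched as CACGTG, was in 6.34% of windows. None of these 6 was in a window of the 7 genes read. In MTTP the GC box stood 108 and 7 bases before the start, in APOC1 15 bases before it. APOC1 also held CCACG, part of the ER stress element found in 33.5% of windows, once, and APOA4 held it 3 times. APOA4 held the sterol element core CACCCCAC once, a string in 2.43% of windows. No match overlapped another. The windows of 7 of the 10 genes were given. A match describes the letters only.

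Depth was uneven, with 1657430 reads at most (HepG2 co-culture control replicate 1) and 49634 at least (HepG2 co-culture FFA replicate 2), and values are given in CPM, counts scaled to a common library total, so that 1 read was worth 0.603 to 20.1 CPM. HepG2 co-culture FFA replicate 1 was the next shallowest, with 147096 reads. Of 14 hepatocyte markers, 11 were higher in every HepG2 library than in any Caco-2 library, TTR and RBP4 overlapped and VTN was higher in every Caco-2 library. Of 13 intestinal markers, CDH17, TSPAN8, MUC13 and CEACAM5 were higher in every Caco-2 library, while CDX1 was at 0 in all 16. CDX2, VIL1, LGALS4, GPA33, SI, ANPEP, ALPI and KRT20 overlapped between the lines. Averaged over conditions, 9 of the 11 tested were lower in HepG2 and 1 was higher (limma, adjusted p under 0.05), against 30.3% of all genes called. The label on extraction names myoblasts. Of 8 muscle markers 1 to 4 had a read in a library, with a summed level of 39.9 to 84.1 CPM in Caco-2, mostly TNNT1 (mean 63.6 CPM), and 13.6 to 21.8 CPM in HepG2. TNNT1 was higher in Caco-2 and ACTA1 in HepG2, and MYOD1, MYOG and MYH8 were at 0 in all 16 libraries.

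The 10 genes together took 0.514% to 0.792% of the reads of a Caco-2 library and 1.94% to 2.79% of the reads of a HepG2 library. In Caco-2 the 4 co-culture libraries (0.685%, 0.677%, 0.792% and 0.738%) all lay above the 4 mono-culture libraries (0.567%, 0.514%, 0.630% and 0.530%). In HepG2 the co-culture control libraries were highest, at 2.51% and 2.79%. The co-culture FFA libraries, at 2.29% and 2.26%, lay near the mono-culture controls, at 2.26% and 2.14%. The widest 95% exact binomial interval, from 2.13% to 2.39%, belonged to HepG2 co-culture FFA replicate 2. These intervals cover counting error only, since reads were amplified by PCR.

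**Figure D1:**
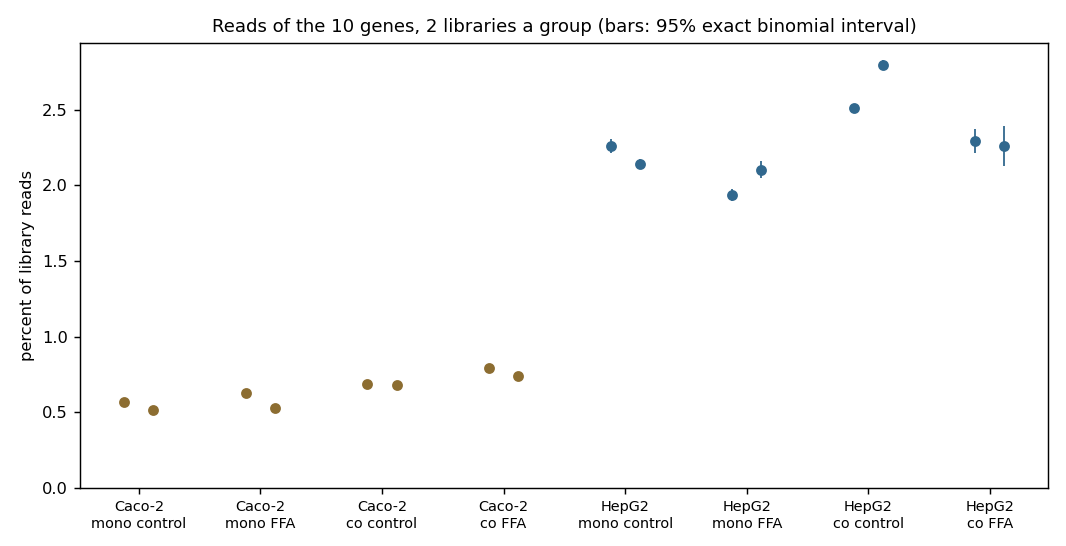
Percent of library reads assigned to the 10 genes (vertical axis, from 0) in each of the 8 groups, 1 point per library with its 95% exact binomial interval. Every HepG2 library, at 1.94% or more, lies above every Caco-2 library, at 0.792% or less.

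The question of which line carries which part of the lipoprotein set was asked first. Averaged over the 4 conditions, 7 of the 10 genes were higher in HepG2 and 2 were lower, against 30.3% of all 17544 genes called in this comparison (limma, adjusted p under 0.05 over all genes). The log2 difference, here and below on the log2(CPM + 1) scale, had a median of 1.61 over the 10 genes and −0.16 over all genes. Without FFA and in mono-culture the counts were 6 higher and 1 lower, against 10.6% of all genes called.

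The transcripts of the scaffold and of its loading protein were higher in HepG2. APOB (ENSG00000084674) had 2.74 and 5.88 CPM in Caco-2 mono-culture control, 9.90 and 9.64 with FFA, 19.8 and 25.4 in co-culture control and 24.6 and 9.86 in co-culture FFA. In HepG2, APOB had 269 and 168 CPM in mono-culture control, 290 and 193 with FFA, 221 and 212 in co-culture control and 374 and 403 in co-culture FFA. No Caco-2 library reached the lowest HepG2 value, and the mean over 8 libraries was 19.7 times higher in HepG2 (log2 difference 4.40, SE 0.212, limma adjusted p = 1.48e-09). MTTP (ENSG00000138823) had 0 and 5.88 CPM in Caco-2 mono-culture control, 0 and 1.60 with FFA, 5.94 and 5.65 in co-culture control and 2.05 and 2.46 in co-culture FFA, 15 reads in all.

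In HepG2, MTTP had 9.29 and 11.7 CPM in mono-culture control, 14.1 and 10.9 with FFA, 16.3 and 19.0 in co-culture control and 20.4 and 20.2 in co-culture FFA, 74 reads in all. Every HepG2 library was above every Caco-2 library (log2 difference 2.34, SE 0.407, adjusted p = 0.00052). The values of co-culture FFA rested on 3 reads and 1 read.

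Among the apolipoproteins of high density lipoprotein, APOA2 (ENSG00000158874) stood apart between the lines and APOA1 (ENSG00000118137) did so much less. APOA2 ran from 732 to 915 CPM over the 8 Caco-2 libraries (median 833) and from 6931 to 15318 over the 8 HepG2 libraries (median 12091), a 14.1-fold difference of the means (log2 3.79, SE 0.0749, adjusted p = 4.07e-13). Caco-2 APOA1 was 3125 and 2817 CPM in mono-culture control, 3403 and 2997 with FFA, 3740 and 3854 in co-culture control and 4404 and 4072 in co-culture FFA. HepG2 APOA1 was 4849 and 3949 CPM in mono-culture control, 3514 and 4762 with FFA, 6653 and 6560 in co-culture control and 7111 and 9408 in co-culture FFA. The lines overlapped for APOA1, in that HepG2 mono-culture libraries lay among the Caco-2 co-culture libraries, and the difference of the means was 1.65-fold (log2 0.67, SE 0.0719, adjusted p = 6.61e-06).

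APOM (ENSG00000204444) and APOH (ENSG00000091583) were also higher in HepG2. APOM ranged from 75.5 to 173 CPM in Caco-2 and from 423 to 1050 in HepG2 (7.33-fold, log2 2.86, adjusted p = 2.12e-11), and APOH from 201 to 412 in Caco-2 and from 2031 to 3949 in HepG2 (7.96-fold, log2 2.99, adjusted p = 1.78e-11). For neither gene did the lines overlap. The APOM gene shares 290 bases with BAG6 on the opposite strand, and BAG6 had at most 46.4 CPM in a library.

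The C apolipoproteins went opposite ways between the lines. APOC1 (ENSG00000130208) was 400 to 532 CPM in Caco-2 and 564 to 1071 in HepG2, without overlap (1.87-fold, log2 0.88, adjusted p = 1.48e-06). Reads of APOC1 and its near-copy APOC1P1, which had at most 20.9 CPM, may have been exchanged. APOC3 (ENSG00000110245) was 565 to 1469 CPM in Caco-2 and 349 to 824 in HepG2, with overlap, and was lower in HepG2 (log2 −0.67, SE 0.111, adjusted p = 0.000332). In mono-culture control alone APOC3 was 664 ± 140 CPM (SD, n = 2) in Caco-2 and 623 ± 74.7 in HepG2, a log2 difference of −0.08 with a 95% interval from −0.56 to 0.40.

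APOA4 (ENSG00000110244), the intestinal member, was higher in Caco-2. It had 85 reads in the 8 Caco-2 libraries and 9 in the 8 HepG2 libraries, of which 4 had none (log2 difference −2.58, SE 0.613, adjusted p = 0.00541). Of those 9 HepG2 reads 5 fell in mono-culture FFA replicate 2, which had 18.2 CPM. APOE (ENSG00000130203) did not pass averaged over conditions (log2 −0.33, 95% interval −0.67 to 0.0030, adjusted p = 0.127), though it did pass after median-ratio rescaling and by edgeR and DESeq2. In mono-culture control APOE was lower in HepG2, at 49.1 ± 22.5 CPM against 157 ± 2.56 in Caco-2 (SD, n = 2, log2 −1.73, SE 0.312, limma adjusted p = 0.0023).

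**Figure D2:**
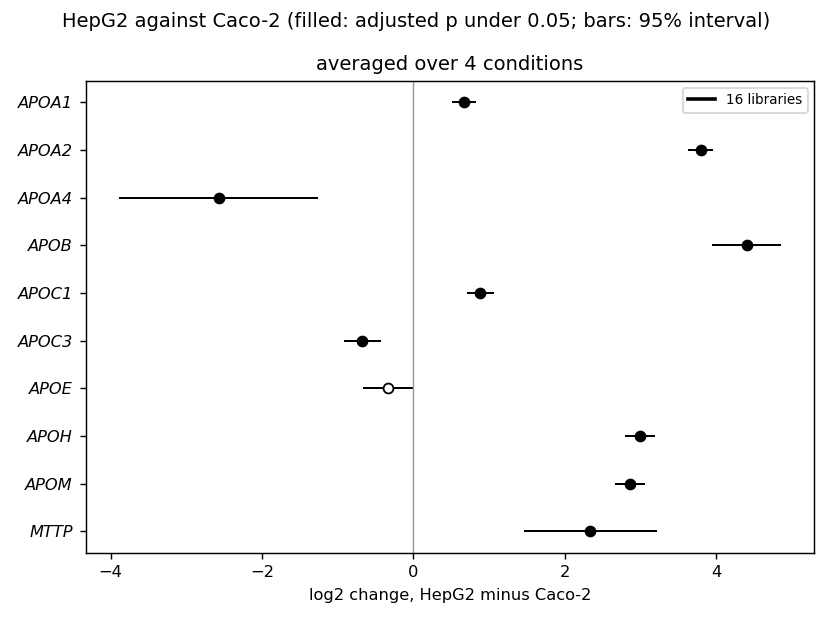
Log2 difference of HepG2 minus Caco-2 (horizontal axis, log2(CPM + 1) scale) for the 10 genes, averaged over the 4 conditions of 2 libraries each, with 95% intervals from limma; filled points had an adjusted p under 0.05. APOB, at 4.40, and APOA2, at 3.79, lie farthest to the right and APOA4, at −2.58, farthest to the left.

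**Figure D3:**
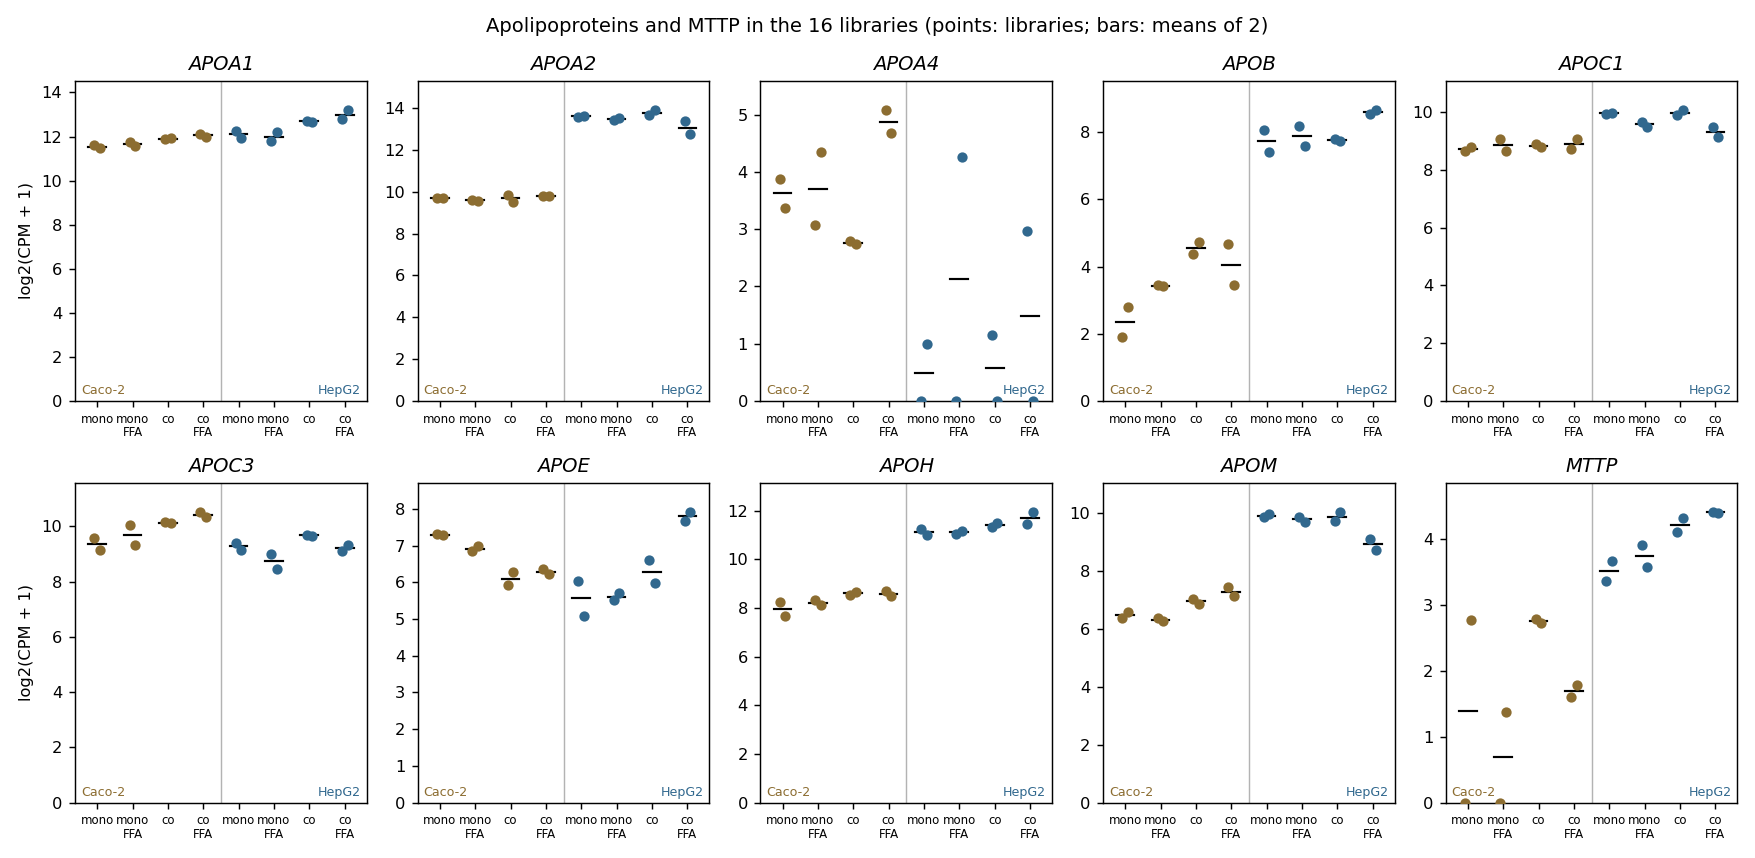
Log2(CPM + 1) of each gene (vertical axes, from 0, on a scale of their own) in the 16 libraries, Caco-2 brown and HepG2 blue, with mono-culture and co-culture, without or with FFA, along the horizontal axis; points are libraries and bars the mean of the 2 log2 values. APOE runs down from mono-culture to co-culture in Caco-2 (157 to 67.9 CPM without FFA) and is highest in HepG2 co-culture FFA (223 CPM).

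Genes that act with these proteins were described from lists, whose counts stand beside 30.3% of all genes called, 2190 higher in HepG2 and 3132 lower. Of 12 other apolipoproteins, 6 were higher in HepG2 and 1 lower, with a median log2 difference of 1.06. APOC2, the activator of lipoprotein lipase, averaged 804 CPM in HepG2 and 1.80 in Caco-2, whereas APOD averaged 368 CPM in Caco-2 and 0.331 in HepG2. SAA4 averaged 24.4 CPM in HepG2 and was at 0 in all 8 Caco-2 libraries. Of 15 genes of particle assembly and export from the endoplasmic reticulum, 6 were higher in HepG2 and 2 lower. P4HB, the partner subunit of MTTP and a gene chosen after its values were seen, was 334 CPM in HepG2 and 95.1 in Caco-2 (log2 1.63). MIA2, an export factor, was 186 and 38.5 CPM (log2 2.17), PRAP1 was 98.2 and 3.57 (log2 4.50) and the coat gene SEC24A was 1.28 and 8.53 (log2 −2.24).

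Of 11 genes that supply the neutral lipid, 4 were higher in Caco-2 and 1 in HepG2, with a median log2 difference of −0.15 beside −0.16 over all genes. DGAT1 and DGAT2, which make triglyceride from diacylglycerol, averaged 14.9 and 13.1 CPM in Caco-2 and 3.10 and 1.83 in HepG2 (log2 −2.38 and −2.71). The carboxylesterase CES1 averaged 172.5 CPM in Caco-2 and 20.9 in HepG2 (log2 −3.38). Of 3 genes of APOB mRNA editing, the deaminase APOBEC1 passed, with a mean of 1.36 CPM in Caco-2 and no read in HepG2.

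Of 10 plasma remodelling and efflux genes measured, 3 were higher in HepG2 and 2 lower. ANGPTL8, an inhibitor of lipoprotein lipase, had a mean of 66.7 CPM in HepG2 and no read in Caco-2, LCAT, which esterifies cholesterol on high density lipoprotein, had 50.6 and 1.01 CPM (log2 4.81), and ABCG5, a sterol exporter subunit, had 5.95 CPM in HepG2 and no read in Caco-2. Of 10 receptor genes, 1 was higher in HepG2 and 3 lower, among them SCARB1, the receptor for high density lipoprotein, at 7.40 CPM in HepG2 and 13.1 in Caco-2 (log2 −1.13). Of 19 transcription factors tested, 6 were higher and 6 lower. NR0B2, the small heterodimer partner, averaged 171 CPM in HepG2 and 0.540 in Caco-2, NR1H4, the bile acid receptor, averaged 18.7 and 2.21 (log2 2.98), and NR2F2 averaged 1.11 and 15.2 (log2 −2.89).

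Whether connecting the lines changed the set was asked within each line. In Caco-2, averaged over FFA, 3 of the 10 genes rose in co-culture (APOA1, APOC3 and APOM) and 1 fell (APOE), against 0.453% of all 15454 genes called. The median log2 change was 0.45 over the 10 genes and 0.14 over all genes, and no gene of these 4 changed direction under another scaling. The other scalings moved the median of the 1143 genes averaging 100 CPM or more from 0.0067 to −0.097 at most. Changes of 0.38 or more in either direction could hardly turn there, so the kept direction was not a test of them. APOE fell by 0.91 on the log2 scale (SE 0.149, limma adjusted p = 0.0141), APOA1 rose by 0.38 (SE 0.0666, adjusted p = 0.0226), APOC3 by 0.75 (SE 0.134, adjusted p = 0.0259) and APOM by 0.72 (SE 0.147, adjusted p = 0.0496).

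The fall of APOE was the largest of these changes. Caco-2 APOE was 159 and 155 CPM in mono-culture control and 114 and 125 with FFA, while it was 59.4 and 76.3 in co-culture control and 81.1 and 73.9 in co-culture FFA. All 4 co-culture libraries were below all 4 mono-culture libraries, and without FFA the co-culture mean was 0.432 times the mono-culture mean. The ratio of APOE to its neighbour APOC1, which does not depend on the library total, was 0.214 to 0.397 in the mono-culture libraries and 0.126 to 0.195 in the co-culture libraries. Caco-2 APOC1 itself was 400 and 441 CPM in mono-culture control and 471 and 441 in co-culture control, a log2 change over FFA of 0.07 with a 95% interval from −0.17 to 0.32.

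APOC3 was 764 and 565 CPM in Caco-2 mono-culture control, 1051 and 646 with FFA, 1129 and 1108 in co-culture control and 1469 and 1276 in co-culture FFA, again without overlap of the cultures. APOM was 82.1 and 95.2 CPM in mono-culture control, 81.6 and 75.5 with FFA, 131 and 116 in co-culture control and 173 and 138 in co-culture FFA. The 4 co-culture values of APOM all exceeded the 4 mono-culture values, as those of APOA1 did. APOH was 298 and 201 CPM in mono-culture control, 319 and 273 with FFA, 372 and 407 in co-culture control and 412 and 356 in co-culture FFA, and its log2 change of 0.52 (SE 0.130) had an adjusted p of 0.104. APOB, on 1 to 24 reads a library, had a log2 change of 1.42 (95% interval 0.54 to 2.30, adjusted p = 0.170).

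Cultures of Caco-2 without overlap were found for 5 of the 10 genes (APOA1, APOC3, APOE, APOH and APOM) and for 5.93% of all genes. Without FFA APOE alone passed (fell by 1.21 on the log2 scale, SE 0.211, limma adjusted p = 0.0491), against 0.0971% of all genes, and 6 of 10 genes and 10.3% of all genes had an unadjusted p under 0.05. With FFA no gene of the 10 passed by limma, against 0.0971%, while 5 and 7.78% of all genes had an unadjusted p under 0.05. In that comparison edgeR called 2 of the 10, beside 55 up and 81 down over all genes. DESeq2 called 1, beside 13 up and 13 down over all genes. Leaving out any single Caco-2 library lowered the 4 calls to between 0 and 2, and leaving out mono-culture control replicate 2 or mono-culture FFA replicate 2 left none. With median-ratio rescaling 2 passed. The calls over all genes were 49 up and 21 down as given, 56 up and 62 down after quantile normalization, and 35 up and 33 down after median-ratio rescaling.

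Some hepatocyte markers moved with these genes. Of 14, 2 were higher in Caco-2 co-culture averaged over FFA and 0 lower (limma, adjusted p under 0.05), against 0.453% of all genes called. At an unadjusted p under 0.05 there were 7 of the 14 and 11.8% of all genes. The summed level of the 14 was 6934 to 8029 CPM in Caco-2 mono-culture and 8679 to 8964 CPM in co-culture, with 12 to 14 of 14 genes read. AFP rose by 0.97 (log2, adjusted p = 0.00538) from a mean of 228 to 441 CPM and TTR by 0.58 (adjusted p = 0.0114) from 804 to 1208 CPM. APOC2, a HepG2 transcript at 673 to 940 CPM, was at 0 to 3.70 CPM in the 8 Caco-2 libraries, and in co-culture it was 1.98 and 0 CPM without FFA and 2.05 and 3.70 with FFA. The HepG2 transcript TF was 5.94 and 2.82 CPM in Caco-2 co-culture control and 1.03 and 3.70 in co-culture FFA. In Caco-2 mono-culture TF was at 0 in control replicate 1 and was read in the other libraries. AMBP was at most 17.8 CPM in a Caco-2 library against 3123 or more in HepG2. The part of the hepatocyte markers in the changes was not tested. Of the pathway lists, 1 gene passed in Caco-2 co-culture, CES1, which rose from 133 ± 21.1 to 212 ± 9.95 CPM (SD, n = 4, log2 0.68, SE 0.121, adjusted p = 0.0245).

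In HepG2 no gene of the 10 passed for co-culture averaged over FFA by limma, and 0% of all 14430 genes did. At an unadjusted p under 0.05 there were 5 of the 10 and 7.72% of all genes, and edgeR and DESeq2 each called APOA1, APOE and APOM, beside 12 up and 19 down over all genes by edgeR and 11 up and 33 down by DESeq2. The median log2 change was 0.40 over the 10 genes and −0.09 over all genes. The log2 change was 1.46 for APOE (95% interval 0.85 to 2.06, adjusted p = 0.375), 0.80 for APOA1 (0.52 to 1.07, adjusted p = 0.236) and −0.45 for APOM (−0.71 to −0.18, adjusted p = 0.554). All 4 co-culture libraries exceeded all 4 mono-culture libraries for APOA1, APOH and MTTP, 3 of the 10 genes. No overlap between cultures was found for 2.31% of all genes. For MTTP the co-culture FFA values rested on 3 reads and 1 read. In replicate 2 of that group 1 read was worth 20.1 CPM, and the highest mono-culture value was 14.1. Any read there lay above mono-culture, so depth set the place of that library for MTTP.

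HepG2 APOE was 65.0 and 33.2 CPM in mono-culture control, 44.8 and 50.9 with FFA, 95.9 and 62.4 in co-culture control and 204 and 242 in co-culture FFA. The last pair, on 30 and 12 reads, stood above every other library of either line. HepG2 APOM was 924 and 991 CPM in mono-culture control, 933 and 830 with FFA, 838 and 1050 in co-culture control and 551 and 423 in co-culture FFA, so that the pair with FFA in co-culture was the lowest of the line. The libraries of that group were also the shallowest.

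Without FFA, 0 of the 10 genes and 0% of all genes passed by limma between co-culture and mono-culture of HepG2, 1 of the 10 (APOA1, log2 0.59) and 2.61% of all genes had an unadjusted p under 0.05, and edgeR and DESeq2 called none. With FFA, 0 of the 10 and 0% of all genes passed by limma, 7 of the 10 and 14.7% of all genes had an unadjusted p under 0.05, and edgeR and DESeq2 each called 3, beside 4 up and 31 down over all genes by edgeR and 10 up and 105 down by DESeq2. The log2 change with FFA was 2.19 for APOE (SE 0.373, adjusted p = 0.154), 1.00 for APOA1 (SE 0.172, adjusted p = 0.154) and −0.86 for APOM (SE 0.166, adjusted p = 0.154). Over fits that left out 1 library APOE ran from 2.07 to 2.32, APOA1 from 0.78 to 1.22 and APOM from −1.05 to −0.67.

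The difference of the co-culture effect between the lines was tested directly, a contrast added after the values had been seen. Averaged over FFA, 2 of the 10 genes passed, against 0.0969% of all genes. For APOE the effect was 2.37 higher in HepG2 (log2, SE 0.312, 95% interval 1.70 to 3.04, limma adjusted p = 0.00689), from a fall in Caco-2 to a positive value in HepG2. For APOM it was 1.17 lower (log2 −1.17, SE 0.184, 95% interval −1.56 to −0.77, adjusted p = 0.0279), positive in Caco-2 and negative in HepG2.

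APOE passed in each of 16 fits that left out 1 library, with values from 2.13 to 2.61. APOM passed in 14 of 16, and not without HepG2 co-culture control replicate 2 (adjusted p = 0.0984) or HepG2 mono-culture control replicate 1 (adjusted p = 0.122). In the libraries with FFA the difference was 2.81 for APOE (SE 0.442, adjusted p = 0.0186) and −1.83 for APOM (SE 0.260, adjusted p = 0.0133), where 0.388% of all genes passed. In the libraries without FFA, where the shallow pair enters only through the shared estimate of the spread, it was 1.93 for APOE (SE 0.442, 95% interval 0.98 to 2.88, unadjusted p = 0.000685, adjusted p = 0.546) and −0.50 for APOM (95% interval −1.06 to 0.058). No gene of the 10 passed there by limma, and 0.0114% of all genes did. Of the 10, 2 had an unadjusted p under 0.05, beside 4.57% of all genes. APOE was called by edgeR, beside 7 up and 4 down over all genes, and by DESeq2, beside 6 up and 9 down.

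**Figure D4:**
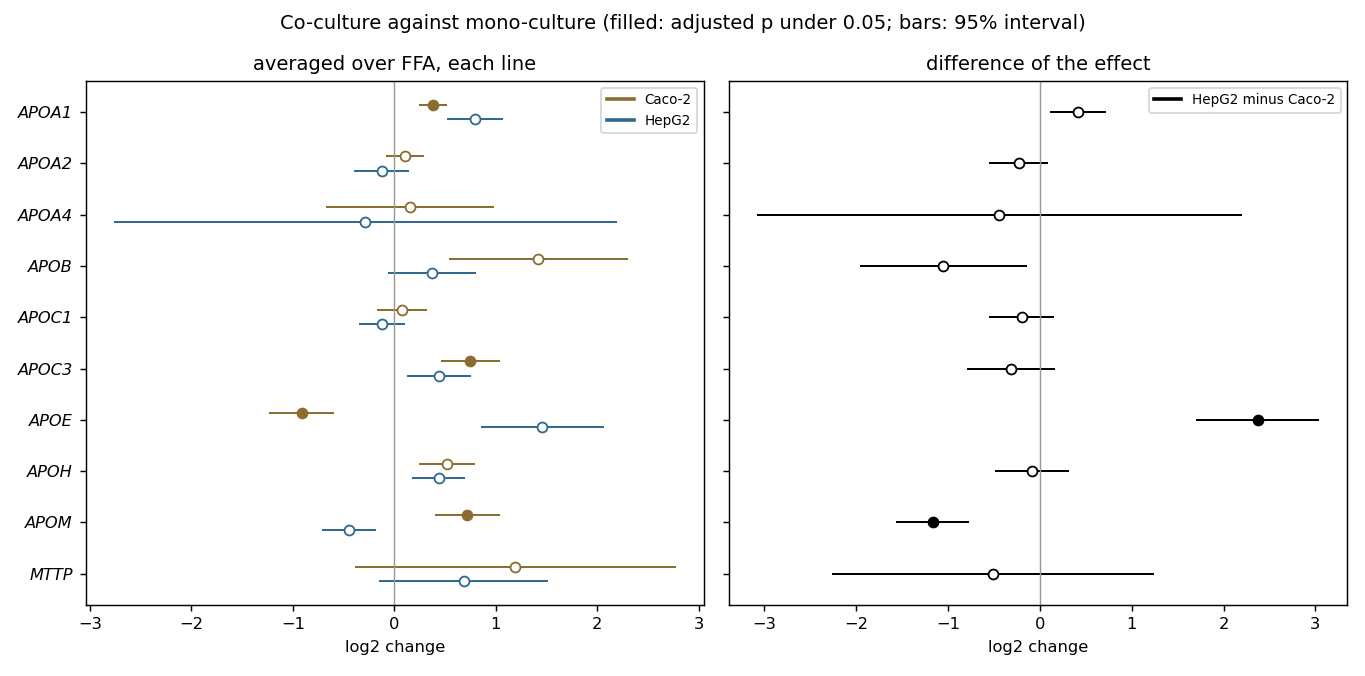
Log2 change of co-culture against mono-culture averaged over FFA in Caco-2 (brown) and HepG2 (blue) on the left, and the HepG2 change minus the Caco-2 change on the right, with 95% intervals from limma on 4 libraries against 4 in each line; filled points had an adjusted p under 0.05. The filled points on the right are APOE (2.37) and APOM (−1.17).

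Whether FFA changed the set was asked in each line and culture. In Caco-2 no gene of the 10 passed by limma, edgeR or DESeq2 for FFA in mono-culture (0.00647% of all genes passed by limma), in co-culture (0%), averaged over culture (0%) or for the interaction of FFA and culture (0%). The numbers of the 10 with an unadjusted p under 0.05 were 0, 1, 2 and 1, and the shares of all genes were 5.80%, 4.88%, 4.85% and 5.02%. The 1 in co-culture and in the interaction was APOA4, which had 13.7 and 9.40 CPM in mono-culture control, 7.42 and 19.3 with FFA, 5.94 and 5.65 in co-culture control and 32.8 and 24.6 in co-culture FFA. The co-culture FFA pair, on 32 and 20 reads, was above every other library. Its log2 change with FFA in co-culture was 2.12 (95% interval 0.95 to 3.28, limma unadjusted p = 0.00158, adjusted p = 0.862), and the interaction was 2.03 (unadjusted p = 0.0190, adjusted p = 0.820).

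Averaged over culture, APOC3 was the other Caco-2 gene with an unadjusted p under 0.05, with a log2 change of 0.31 (95% interval 0.022 to 0.60, adjusted p = 0.829). For APOA1, APOA2 and APOC1 the 95% intervals of the FFA effect over culture ran from −0.011 to 0.27, from −0.18 to 0.19 and from −0.16 to 0.34 on the log2 scale. Caco-2 APOB with FFA in mono-culture had a log2 change of 1.09 (95% interval −0.16 to 2.33), on 4 and 6 reads with FFA and 1 and 5 without.

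In HepG2 mono-culture FFA gave no call by limma, edgeR or DESeq2 among the 10 genes, with 0% of all genes passing by limma, and 2 of the 10 and 6.26% of all genes had an unadjusted p under 0.05. These were APOC1, at 984 and 1008 CPM in control and 799 and 720 with FFA (log2 −0.39, adjusted p = 0.730), and APOC3, at 675 and 570 CPM in control and 513 and 349 with FFA (log2 −0.55, adjusted p = 0.712). In co-culture 0 of the 10 and 0% of all genes passed by limma, 6 of the 10 and 15.9% of all genes had an unadjusted p under 0.05, and edgeR and DESeq2 each called APOA2, APOC1, APOC3 and APOM, all lower. Over all genes edgeR called 33 up and 423 down and DESeq2 25 up and 268 down. The median of all genes lay at −0.26 in this comparison and at −0.45 after median-ratio rescaling.

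In HepG2 co-culture APOA2 was 13008 and 15318 CPM in control and 10592 and 6931 with FFA (log2 −0.72, SE 0.168, adjusted p = 0.147). APOC1 was 942 and 1071 CPM in control and 714 and 564 with FFA (log2 −0.66, SE 0.142, adjusted p = 0.135), and APOC3 was 824 and 803 in control and 551 and 645 with FFA (log2 −0.45, SE 0.194, adjusted p = 0.312). APOM had a log2 change of −0.96 (SE 0.166, adjusted p = 0.102). These 4 kept their negative sign under 4 other scalings. Each of those scalings lowered the median of the 1167 genes averaging 100 CPM or more in HepG2. It was −0.026 as given, −0.12 by quantile normalization, −0.44 by median-ratio rescaling, −0.62 by edgeR and −0.37 by DESeq2. A gene already negative could hardly turn positive there, so the kept sign was not a test of these falls.

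APOE and APOB had positive values in the same comparison, 1.51 for APOE (log2, 95% interval 0.65 to 2.36, adjusted p = 0.158) and 0.84 for APOB (0.22 to 1.45, adjusted p = 0.245), in each case with both FFA libraries above both control libraries. HepG2 APOH was 2548 and 2844 CPM in co-culture control and 2801 and 3949 with FFA, and APOA1 was 0.31 higher on the log2 scale (95% interval −0.085 to 0.70). The signs of APOA1 and APOH were negative under median-ratio rescaling, edgeR and DESeq2, and that of MTTP was negative under those and quantile normalization. APOB ran from 0.78 to 0.89 and APOA1 from 0.11 to 0.51 over fits that left out 1 library. On the negative side APOM ran from −1.15 to −0.77 and APOA2 from −1.03 to −0.41. A fit without 1 of the FFA libraries leaves a lone library in that group, whose own spread cannot be estimated.

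Averaged over culture, FFA in HepG2 gave 0 of the 10 by limma against 0.0762% of all genes, 6 of the 10 with an unadjusted p under 0.05 against 13.8% of all genes, and 4 each by edgeR and DESeq2, all lower, where over all genes edgeR called 47 up and 583 down and DESeq2 48 up and 296 down. APOC1 had a log2 change of −0.53 (SE 0.1002, adjusted p = 0.131), APOM of −0.54 (SE 0.117, adjusted p = 0.147), APOA2 of −0.42 (SE 0.119, adjusted p = 0.207), APOC3 of −0.50 (SE 0.137, adjusted p = 0.202), APOB of 0.49 (SE 0.189, adjusted p = 0.303) and APOE of 0.77 (SE 0.264, adjusted p = 0.262). Over fits that left out 1 library APOC1 ran from −0.61 to −0.44 and APOM from −0.63 to −0.44. The interaction of FFA and culture gave 0 of the 10 and 0% of all genes by limma, 0 by edgeR and DESeq2, and 3 of the 10 with an unadjusted p under 0.05, APOM (−0.84), APOA2 (−0.59) and APOE (1.47), beside 6.94% of all genes. Over fits that left out 1 library the interaction ran from −1.03 to −0.65 for APOM, −0.90 to −0.29 for APOA2 and 1.00 to 1.95 for APOE.

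Of the listed pathway genes, none passed for FFA in either line. Beside them HSPA5, the main chaperone of the endoplasmic reticulum, rose with FFA in HepG2 averaged over culture from 1338 ± 89.6 to 2722 ± 883 CPM (SD, n = 4, log2 0.97, adjusted p = 0.0372), and HERPUD1, a gene of endoplasmic reticulum-associated degradation, rose from 168 ± 20.3 to 599 ± 283 CPM (log2 1.73, adjusted p = 0.0372). The hepatocyte marker AHSG rose by 0.41 (log2, adjusted p = 0.0372). The part of these genes in the values of the 10 was not tested. The difference of the FFA effect between the lines gave 0 of the 10 by limma against 0.0912% of all genes, 5 of the 10 with an unadjusted p under 0.05 (APOA2, APOC1, APOC3, APOE and APOM) against 11.4% of all genes, 6 by edgeR and 4 by DESeq2. Over all genes edgeR called 11 up and 593 down there, and DESeq2 58 up and 280 down. The log2 difference was −0.81 for APOC3 (95% interval −1.29 to −0.33, adjusted p = 0.163) and −0.62 for APOC1 (−0.97 to −0.26, adjusted p = 0.153). Over fits that left out 1 library APOC3 ran from −0.98 to −0.63 and APOC1 from −0.72 to −0.51.

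**Figure D5:**
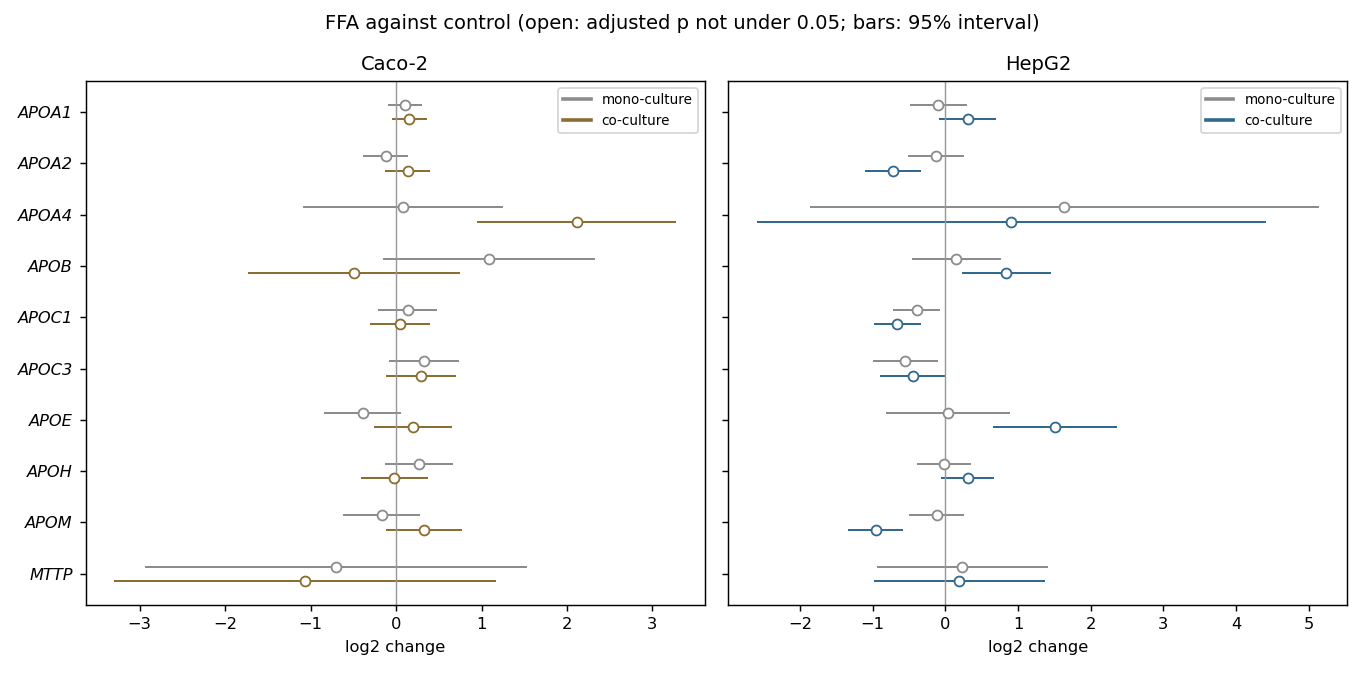
Log2 change with FFA against control in mono-culture (grey) and co-culture (coloured) for Caco-2 on the left and HepG2 on the right, 2 libraries against 2, with 95% intervals from limma; all points are open because no adjusted p was under 0.05. In HepG2 co-culture APOM (−0.96), APOA2 (−0.72) and APOC1 (−0.66) lie left of 0 and APOE (1.51) and APOB (0.84) right of it.

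Likeness across libraries was described by Pearson's r of log2(CPM + 1) over the 8 libraries of a line, which share depth and group structure, among genes whose mean in that line reached 100 CPM (1143 in Caco-2, 1167 in HepG2). In Caco-2 the genes most like APOA1 were SRSF5 (r = 0.987), 5_8S_rRNA (0.981) and TTR (0.9804), and those most like APOC3 were SRSF5 (0.983), its neighbour APOA1 (0.9751) and AC008750.8 (0.963). Those most like APOE were FTH1 (0.940), RPL13 (0.930) and AC067930.5 (0.922), those most like APOM were LGALS2 (0.973), MGST2 (0.968) and TRAPPC2L (0.940), and those most like APOH were SLC50A1 (0.962), CTSV (0.955) and C19orf48 (0.954). The first for APOA2 was DANCR (0.948) and for APOC1 CHD2 (0.915). Within the set APOE ran against APOA1 (r = −0.84), APOB (−0.83) and APOC3 (−0.82).

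In HepG2 the genes most like APOA1 were CALM2 (0.962), APOH (0.938) and AC073283.3 (0.929). Those most like APOB were HSP90AB1 (0.948), HYOU1, a chaperone of the endoplasmic reticulum (0.932), and SRP9 (0.927). Those most like APOA2 were NME1-NME2 (0.987), NME1 (0.9797) and ATP5MC1 (0.979), and the first for APOC1 was RPS24 (0.981), for APOC3 SNORD13 (0.939), for APOH CLU (0.949) and for APOM RPL21P28 (0.976). Within the set APOA2, APOC1 and APOM ran together (r = 0.91 for APOA2 with APOC1, 0.90 for APOA2 with APOM and 0.88 for APOC1 with APOM), and APOE ran against APOM (r = −0.91). APOA1 and APOE, which ran against each other in Caco-2, had r = 0.89 in HepG2.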

How the data were processed

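The deposited values were 1 table per library, named TPM. In every library the low values sat on whole multiples of a single step (100% within 0.1 step), so they were treated as CPM, reads per gene scaled by the authors to a common total, and the reads were recovered from the step (49634 to 1657430 per library; the floor is 3 reads). The submitters' processing notes name minimap2 2.22 and GRCh38. The study's methods name Bowtie, STAR and RSEM for mRNA-seq, and it is not stated which steps made these values. The test fixed for TPM was kept.

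Genes whose mean reached 1 CPM in any group were fitted on log2(CPM + 1) with limma 3.58.1 (trended prior variance, R 4.3.3), for each line over 8 libraries (15454 and 14430 genes) and for both over 16 (17544 genes). P-values were two-sided and adjusted by the Benjamini-Hochberg method over all genes, with a threshold of 0.05. A low count understates a change on this scale. The fits were tested on simulated data. No replicate pair agreed within counting noise (chi-square over degrees of freedom 1.52 to 2.85), so no pair was taken for 1 library deposited again. This does not show separate cultures.

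The 10 genes, the lists and the named genes were chosen with earlier results of these data known. Named were the 10 genes, listed genes that passed within a line, up to 3 per list with the largest difference between lines, and up to 3 genes most like each of the 10 whose mean in the line reached 100 CPM. Alternatives were no filter, a filter at 10 CPM, a 0.1 pseudocount, median-ratio rescaling, quantile normalization, edgeR 4.0.16 and DESeq2 1.42.0 on the recovered reads, a replicate block, a constant prior variance, the study's thresholds (unadjusted p under 0.05 and a fold of 1.2) and leaving out each library. The study set its thresholds on an analysis of variance over conditions, and here they were applied to each limma contrast. For mono-culture against co-culture its methods also give DESeq2 with a stricter p. Positions come from GENCODE 44 and promoters from RefSeq (GRCh38.p14).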

Additional observations from a re-analysis of the deposited data

Results flagged for a closer look

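Both results were noted because the co-culture effect differed between the lines by the test of the difference itself (limma, adjusted over all genes), a contrast chosen after the values had been seen. For APOE the HepG2 effect exceeded the Caco-2 effect by 2.37 on the log2 scale averaged over FFA (adjusted p = 0.00689) and by 2.81 in the libraries with FFA (adjusted p = 0.0186). For APOM the difference was −1.17 averaged over FFA (adjusted p = 0.0279) and −1.83 with FFA (adjusted p = 0.0133). APOE averaged over FFA passed in 9 of 9 alternatives, and APOM in 7 of 9, with an adjusted p of up to 0.179. The ratio of APOM to APOE reads within a library was 0.517 to 0.717 in Caco-2 mono-culture and 1.52 to 2.20 in Caco-2 co-culture. In HepG2 it was 14.2 to 29.8 in mono-culture, 8.74 and 16.8 in co-culture control and 2.70 and 1.75 in co-culture FFA. The co-culture FFA libraries of HepG2, with 30 and 12 APOE reads and 81 and 21 APOM reads, were the 2 shallowest.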

How the results depend on the processing

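Of 408 repeated counts of the 10 genes called, 333 stayed within 1.5 times the count as reported. Of 4066 repeated log2 changes, 3642 kept their sign and side of the threshold. 1 reversed, APOH in the line difference of the FFA effect (0.02 by limma, −0.64 by edgeR, adjusted p = 0.0249), and 192 that passed in neither fit changed sign. The cause was not tested. In Caco-2 co-culture without FFA (1 call), a pseudocount of 0.1 or a constant prior gave 0, no filter or quantile normalization 2, and a 10 CPM filter 3. Over all genes these gave 2, 0, 42, 21 and 93 calls, the last among 6481 genes. With FFA (0 calls) the 10 CPM filter gave 3, edgeR 2 and DESeq2 1, beside 91, 136 and 26 over all genes. Averaged (4 calls), the pseudocount and the constant prior gave 0 and median-ratio rescaling 2, beside 8, 0 and 68 over all genes. In HepG2, quantile normalization gave 2 for FFA in co-culture, 3 for co-culture with FFA, 3 for FFA averaged and 1 for co-culture averaged. Over all genes it gave 102, 40, 77 and 20. In the same order edgeR and DESeq2 each gave 4, 3, 4 and 3. Over all genes edgeR gave 456, 35, 630 and 31, and DESeq2 gave 293, 115, 344 and 44. Median-ratio rescaling gave 1 for FFA in co-culture, beside 83 over all genes. For the line difference of the FFA effect median-ratio rescaling gave 1, edgeR 6 and DESeq2 4, beside 68, 604 and 338 over all genes. For that of the co-culture effect the constant prior gave 1 averaged and 1 with FFA (APOE, with APOM lost). Without FFA edgeR and DESeq2 gave 1 each. Over all genes these 4 fits gave 54, 200, 11 and 15.

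At the study's thresholds the Caco-2 counts were 1 (FFA in co-culture), 6 and 5 (co-culture without and with FFA), 2 (FFA averaged) and 1 (interaction). The HepG2 counts were 2 and 6 (FFA in mono-culture and co-culture) and 1 and 7 (co-culture without and with FFA). They were 6 and 5 for FFA and co-culture averaged and 3 for the interaction. For the line differences they were 5 (FFA) and 4, 2 and 4 (co-culture averaged, without and with FFA). On the unadjusted p alone the share of all genes ran from 2.61% (HepG2 co-culture without FFA) to 15.9% (HepG2 FFA in co-culture). In Caco-2 co-culture without and with FFA it was 10.3% and 7.78%. The share of all genes that also met the fold was not counted. Leaving out 1 library gave 0 to 1 in Caco-2 co-culture without and with FFA and 0 to 2 averaged, 0 to 5 in HepG2 for FFA in co-culture and for co-culture with FFA, 0 to 3 for FFA averaged, 0 to 4 for co-culture averaged and 0 to 2 for the interaction. It gave 0 to 3 for the line difference of the FFA effect, 1 to 3 for that of the co-culture effect averaged and 2 to 4 with FFA. A lone library was taken to vary like the others, and the share of all genes called in these fits was not counted.

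Deviations of libraries with the same replicate number had a low mean correlation over 6 pairs of groups. It was 0.151 in Caco-2 (−0.02 to 0.29) and 0.0529 in HepG2 (−0.10 to 0.12). For co-culture averaged over FFA, a replicate block raised the Caco-2 calls over all genes from 70 to 210. The HepG2 calls stayed at 0, and those for the line difference of this effect went from 17 to 15. Whether replicates of the same number shared an experiment was not tested. Within the set of apolipoproteins and MTTP, the replicate block gave 3 calls in Caco-2 co-culture without FFA and 3 with FFA. Over all genes it gave 46 and 57 there. For the line difference of the co-culture effect averaged the replicate block gave 1 (APOE, with APOM lost). At 3 reads the floor was 1.81 to 60.4 CPM, so APOA4 and MTTP, and APOB in Caco-2, were limited by depth.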
